A study of Mus musculus with 18 samples.

Results

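The 47 genes described here encode the secreted Wnt ligands, their receptors and co-receptors, the R-spondins with their Lgr receptors, the secreted Wnt antagonists and the Axins of the mouse. They were taken from the 21951 protein-coding genes of GENCODE M21 on mm10 (GRCm38) by symbol, as all numbered Wnt, Fzd, Dkk, Sfrp, Rspo, Axin and Lgr genes together with Lrp5 and Lrp6, and without Dkk3. Around these genes, from 10 kb upstream of the start to the end of the gene, lay 140 of the 73567 open chromatin regions of the series. A region here is an interval in which the ATAC-seq peaks of at least 2 of the 18 libraries overlapped.

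Wnt proteins are secreted lipid-modified ligands that bind a Frizzled receptor together with Lrp5 or Lrp6 on the receiving cell. In the canonical branch this binding inactivates a destruction complex built around Axin, so that β-catenin accumulates and acts with TCF/LEF factors in the nucleus. R-spondins bound to Lgr receptors keep Frizzleds at the cell surface, Sfrp proteins bind Wnt ligands outside the cell, and Dkk1, Dkk2 and Dkk4 block the co-receptors. In the eye the pathway is known for the patterning of the optic cup and the ciliary margin and, through Fzd4 and Lrp5, for the growth of retinal vessels.

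ATAC-seq, in which a transposase inserts adapters into accessible DNA, was performed on whole retinas of mice labelled as wildtype (WT). The mice were 3 or 18 months old (3mo, 18mo), and each age gave 3 groups with 3 libraries each. In the IOP groups the intraocular pressure of the eye had been elevated to 30 mmHg during 1 hour, the contralateral groups came from the other eye of pressure-treated mice, and the untreated groups came from mice without pressure. The labels place the IOP and contralateral retinas at day 2, the study's text at another day. The treatment text shared by the labels also describes dasatinib, a kinase inhibitor, but assigns no library to a drug arm. The labels number the samples within each group without saying which came from which mouse, so the tests measure the spread between these samples. In a bulk retina, fewer cells that carry an open region and less signal per cell cannot be told apart.

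Each library held between 36011 peaks (18mo IOP replicate 3) and 66160 peaks (3mo contralateral replicate 2), at a depth estimated from the peak values as 16.3 to 28.3 M tags. The shortest listed peak was 79 to 89 bp in the 6 untreated libraries, 114 to 122 bp in 5 other libraries and 148 to 157 bp in the remaining 7, and these classes cross the groups unevenly. The promoters of 7 of 8 photoreceptor marker genes were called in all 18 libraries, as were those of 2 of 5 bipolar, 2 of 6 amacrine and horizontal, 2 of 6 ganglion cell and 2 of 5 Müller glia markers. The corresponding counts were 0 of 6 for microglia, with all 6 promoters called in no library, and 0 of 6 for blood vessel endothelium and pericytes, of which Pdgfrb was called in 9 libraries and the other 5 in none. They were 1 of 6 for retinal pigment epithelium (Mitf) and 0 of 5 for lens and corneal epithelium.

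Of the 10 Frizzled receptors 9, and all Lgr receptors and Axins, carried open promoters in every library, whereas none of the 7 secreted antagonists did. A promoter was taken as 1 kb upstream to 100 bp downstream of a transcript start. By this measure 21 of the 47 genes (44.7%) had a promoter region called in all 18 libraries, against 53.1% of all protein-coding genes. A further 12 (25.5%, against 9.38% of all) were called in some libraries, and 14 (29.8%, against 37.5%) in none. The 21 promoters comprised 9 of 10 Frizzleds, 3 of 3 Lgr receptors, 2 of 2 Axins, 1 of 2 co-receptors (Lrp6), 1 of 4 R-spondins (Rspo2) and 5 of 19 ligands (Wnt2b, Wnt6, Wnt7b, Wnt9a and Wnt11). A promoter without a call is not shown to be closed, since a peak list holds no value for a region that did not pass the peak caller's threshold.

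**Figure D1:**
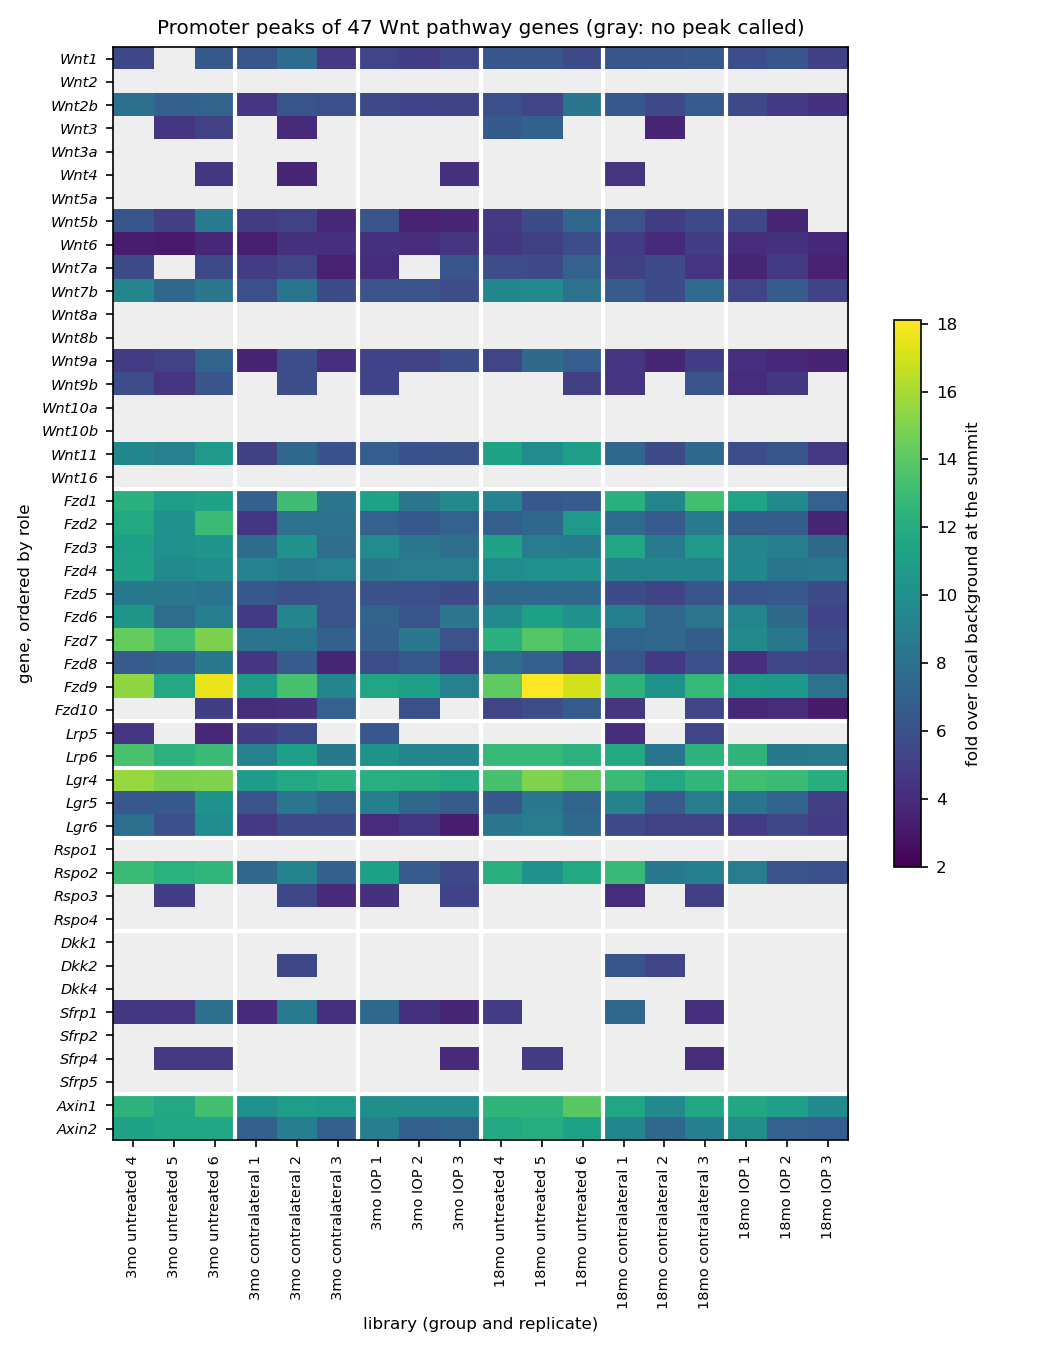
Promoter peaks of the 47 genes (vertical axis, ordered by role) in each of the 18 libraries (horizontal axis, by group and replicate). The color gives the fold over local background at the summit and gray marks no called peak, so that the Frizzled, Lgr and Axin genes apart from Fzd10 have no gray cell, while the antagonists are called in 12 libraries at most (Sfrp1).

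The DNA just upstream of the start is shown for 3 promoters that were called in every library and for 2 antagonist promoters that were called rarely or never, so that their base composition can be read against the calls. The sequences are the 250 bases before the start in RefSeq (GRCm38.p6, plus strand, capitals mark CpG dinucleotides). They lie at chr7:89404116-89404365 for Fzd4, a receptor required for retinal vascular growth, at chr2:109917397-109917646 for Lgr4, a receptor of R-spondins, and at chr11:108920099-108920348 for Axin2, a scaffold of the destruction complex and a widely used Wnt target gene. They lie at chr3:132085042-132085291 for Dkk2, which binds Lrp co-receptors, and at chr3:83766071-83766320 for Sfrp2, a secreted protein that binds Wnt ligands. The called Dkk2 region (chr3:132084131-132084344) touches the promoter at its far upstream end, and the printed Dkk2 bases lie outside it.
Fzd4: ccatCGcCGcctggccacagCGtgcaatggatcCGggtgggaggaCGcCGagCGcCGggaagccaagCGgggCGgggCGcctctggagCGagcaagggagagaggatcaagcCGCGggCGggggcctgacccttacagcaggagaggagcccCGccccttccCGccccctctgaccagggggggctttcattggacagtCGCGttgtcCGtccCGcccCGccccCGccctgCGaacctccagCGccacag
Lgr4: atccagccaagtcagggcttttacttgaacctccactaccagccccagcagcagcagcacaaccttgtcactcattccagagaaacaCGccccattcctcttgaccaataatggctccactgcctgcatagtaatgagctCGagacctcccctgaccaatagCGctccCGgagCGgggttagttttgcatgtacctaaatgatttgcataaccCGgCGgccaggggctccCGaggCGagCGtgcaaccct
Axin2: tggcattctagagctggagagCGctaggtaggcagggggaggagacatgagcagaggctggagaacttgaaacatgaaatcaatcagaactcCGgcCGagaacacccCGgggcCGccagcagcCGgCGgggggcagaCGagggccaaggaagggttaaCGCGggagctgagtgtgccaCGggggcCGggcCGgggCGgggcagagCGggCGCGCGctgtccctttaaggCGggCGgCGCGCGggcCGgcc
Dkk2: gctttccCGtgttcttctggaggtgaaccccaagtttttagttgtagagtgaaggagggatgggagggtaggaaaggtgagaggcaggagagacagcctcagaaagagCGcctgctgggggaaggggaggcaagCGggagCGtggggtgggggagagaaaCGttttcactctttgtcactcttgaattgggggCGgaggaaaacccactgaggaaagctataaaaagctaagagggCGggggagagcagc
Sfrp2: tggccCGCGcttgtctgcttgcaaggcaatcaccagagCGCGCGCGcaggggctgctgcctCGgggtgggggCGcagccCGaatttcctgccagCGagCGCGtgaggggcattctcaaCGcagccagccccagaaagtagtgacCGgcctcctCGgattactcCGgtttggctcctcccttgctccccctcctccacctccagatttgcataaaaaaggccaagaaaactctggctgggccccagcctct

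The promoter of Fzd4 held 25 CpG dinucleotides in these 250 bases, that of Axin2 24, that of Lgr4 10, that of Sfrp2 16 and that of Dkk2 7. The Lgr4 promoter, called in all 18 libraries, thus had fewer than the Sfrp2 promoter, which was called in none. Over the 30 member genes in the RefSeq promoter table the median was 22.5 CpG dinucleotides and 69.4% GC, against 6.00 and 52.4% over all 32851 promoters of the table. The 12 genes with a promoter called in all libraries had a median of 26.5 CpG (range 10 to 48). The 8 called in some libraries had 28.5 (7 to 44) and the 10 called in none 15.0 (5 to 41), so the ranges of the 3 classes overlapped. A gene was classed by its best-called promoter at any start, while its bases came from 1 RefSeq start, which can differ. At Wnt11 the region called in all 18 libraries lay 2982 bp into the gene, and the region at the gene start was called in 7. Axin1, Dkk4, Fzd2, Fzd3, Fzd6, Fzd8, Lgr5, Lrp5, Lrp6, Rspo2, Rspo3, Sfrp1, Sfrp4, Wnt10a, Wnt5a, Wnt7b and Wnt8a had no entry.

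Of the 140 regions, 43 (30.7%) were called in all 18 libraries, near the 33.6% of all regions. The median region of the group was 421 bp wide and called in 12 libraries, against 405 bp and 12 libraries over all regions, and 15.0% against 19.8% were called in at most 3 libraries. The group differed more in where its regions lay, by the position of the median summit. It fell in a promoter of any gene in 25.7% and in another exon in 18.6%, against 19.4% and 6.5% of all regions. It was intergenic in 12.9% against 28.0%. A member window covers a gene and its upstream flank, and so holds less intergenic sequence by construction. Relative to the member gene itself, 31 regions had their summit at its promoter (19 of them in all libraries), 60 in introns (8), 24 upstream (10), 17 in coding exons (4), 7 in 5′ UTRs (2) and 1 in a 3′ UTR (0). The promoter calls of genes given above took any overlap with a promoter. Regions counted there, such as those at the starts of Wnt2b and Wnt6, can therefore stand here under another place.

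**Figure D2:**
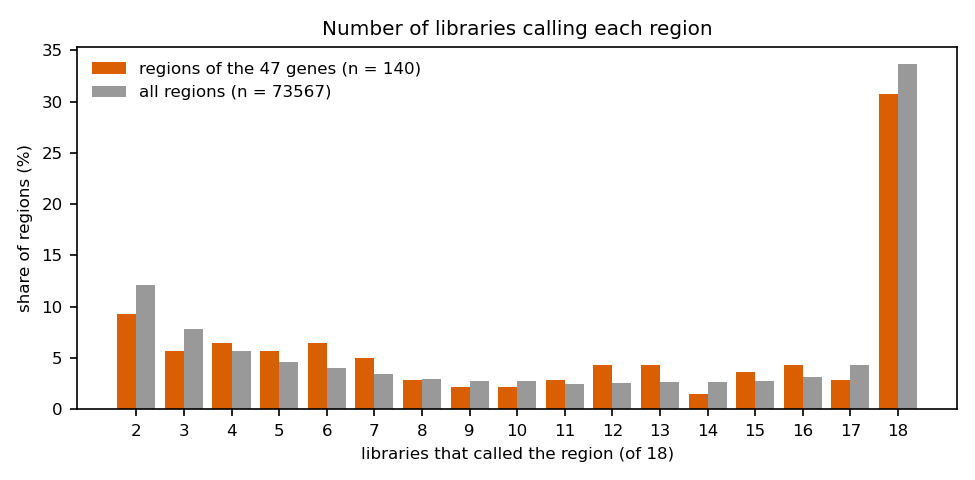
Share of regions (percent, vertical axis) by the number of libraries that called them (2 to 18, horizontal axis), for the 140 regions of the Wnt genes and for all 73567 regions. Both distributions end in a peak at 18 libraries, of 30.7% for the Wnt genes and 33.6% for all regions.

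Ligand loci held 57 of the regions, 20 of them called in every library. Wnt5b, a ligand mainly of β-catenin-independent signalling, had 13 regions, the largest number of any member, with 3 called in all libraries, and 1 of the 13 lay at the promoter of Fbxl14, a gene within its span. Wnt10a, a ligand of canonical signalling, had 6 regions, 4 of them in all libraries, but no call at its promoter in any library. Wnt8a was the only other gene with a region in all libraries and no promoter call. The strongest ligand promoters called throughout were those of Wnt11, with a median summit fold over local background of 7.1 (range over libraries 4.66 to 11.3), and Wnt7b, a ligand known for vessel growth in the brain, with 6.65 (5.25 to 9.70). Summit folds are ratios to the local background within a library, and the peak caller's background differs between the shortest-peak classes.

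Among the ligand promoters called in some libraries, Wnt1 and Wnt5b were called in 17 libraries and Wnt7a in 16. The Wnt5b region meant here is its best-called one, at another start 95107 bp into the gene. The region at the Wnt5b gene start (chr6:119543615-119544772) was called in 12 libraries. The promoter of Wnt9b was called in 10 libraries, that of Wnt3 in 6 and that of Wnt4 in 4. The 3 untreated 3mo libraries all called Wnt9b, with folds of 5.78, 4.40 and 6.26 (replicates 4, 5 and 6), while each other group called it in 1 or 2 of its 3 libraries. Wnt3, a canonical ligand, had 2 regions called in all 18 libraries, 1 in an intron and 1 upstream. At either age its promoter was called in 2 of 3 untreated, 1 of 3 contralateral and 0 of 3 IOP libraries. For IOP against contralateral over both ages the exact stratified p was 0.500. With so few calls this test could give no lower p, so it cannot decide whether the calls differed. Folds in the 6 calling libraries ran from 3.74 to 7.0, on 7 to 14 tags at the summit. No promoter region was called for Wnt2, Wnt3a, Wnt5a, Wnt8a, Wnt8b, Wnt10a, Wnt10b and Wnt16, and Wnt2 had no region at all in its window.

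The 10 Frizzled genes, which encode the receptors that bind Wnt ligands, held 24 regions, 10 of them called in every library. The Fzd4 promoter, the only region of that gene, had folds of 11.3, 9.62 and 9.87 in the 3mo untreated libraries, 9.14, 8.59 and 9.01 in the 3mo contralateral, 8.50, 8.79 and 8.85 in the 3mo IOP, 9.83, 10.1 and 10.2 in the 18mo untreated, 9.25, 9.25 and 9.25 in the 18mo contralateral and 9.44, 8.27 and 8.50 in the 18mo IOP libraries. On this scale the untreated libraries of both ages gave the highest values, and the remaining 12 libraries overlapped across age and pressure. The order depended on the scale: after quantile normalization the untreated libraries were at 7.42 to 9.30 within a range of 7.42 to 11.2 over all libraries (log2 difference from contralateral -0.17, limma adjusted p = 0.185), and their summits held 80 to 102 tags against 109 to 143 in the others. By the rank of its −log10 q within each library it stood on average at percentile 90.9 of all peaks. Fzd9 had the highest median promoter fold of the family, 11.6 (8.03 to 18.1), and Fzd5, a receptor of the developing optic cup, the largest summit depth, 98 to 147 tags, at a fold of 6.20 (5.28 to 8.53). The Fzd6 promoter region also covered the start of Gm26704, and the Fzd3 locus, with 6 regions the largest of the family, included the promoter of Fbxo16.

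Fzd10, a receptor of canonical ligands, was the exception in the family, called in 13 libraries. Its single region, shared with the start of 5930412G12Rik, was called in 1 of 3 3mo untreated, 3 of 3 3mo contralateral, 1 of 3 3mo IOP, 3 of 3 18mo untreated, 2 of 3 18mo contralateral and 3 of 3 18mo IOP libraries. Folds where it was called ran from 3.17 to 7.04, on 8 to 17 tags, close to the lower end of what the peak caller listed for these genes. Each group thus held at least 1 call.

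The co-receptors differed from each other. Lrp6 had 9 regions and a promoter called in all libraries at a median fold of 11.5 (8.23 to 13.5), while Lrp5, whose loss impairs retinal vessels, also had 9 regions, of which none was called in all libraries. The Lrp5 promoter was called with folds of 4.47 and 3.86 in 3mo untreated replicates 4 and 6, 4.92 and 5.63 in 3mo contralateral replicates 1 and 2, 6.35 in 3mo IOP replicate 1, and 4.12 and 5.34 in 18mo contralateral replicates 1 and 3. No 18mo untreated and no 18mo IOP library called it. It was thus called in 5 of 9 libraries at 3 months and in 2 of 9 at 18 months, a difference that did not pass (exact p = 0.320, adjusted p = 1.00, age within condition over all 18 libraries).

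The Lgr receptors carried 20 regions, 6 of them in all libraries. The Lgr4 promoter had the highest median fold of all members, 12.8 (10.9 to 15.6), on 84 to 138 tags, at percentile 95.2 of the peaks of a library. Lgr6 had 11 regions (4 in all libraries), of which 1 was at the promoter of Gm10535, and Lgr5, a stem cell marker in other tissues, had 5 (1 in all libraries). Of the R-spondins, Rspo2 had a promoter called in all libraries (median fold 9.10, range 5.56 to 13), and Rspo3 was called in 7 libraries. Folds at Rspo3 were 4.94 in 3mo untreated replicate 5, 5.52 and 3.91 in 3mo contralateral replicates 2 and 3, 4.28 and 5.22 in 3mo IOP replicates 1 and 3, and 4.12 and 5.05 in 18mo contralateral replicates 1 and 3. The 18mo untreated and 18mo IOP groups held no call, as at Lrp5. Rspo4 had 1 region and no promoter call, and Rspo1 had no region.

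The 7 secreted antagonists had 9 regions, with the lowest median per gene of all roles (1.00), and the only 1 called in every library lay upstream of Sfrp4 at the promoter of its neighbour Epdr1. Sfrp1, an antagonist that binds Wnt ligands directly, was called at its promoter in 12 libraries, Sfrp4 in 5 and Dkk2 in 3, and Sfrp2, Sfrp5, Dkk1 and Dkk4 in none. Dkk2 was called in 3mo contralateral replicate 2 (fold 5.52) and in 18mo contralateral replicates 1 and 2 (6.18 and 5.36), and in no IOP or untreated library. Dkk1 had no region at all. Both Axin promoters were called in all libraries, Axin1 at a median fold of 11.3 (9.62 to 14) and Axin2 at 8.92 (6.83 to 12), and 4 of the 6 Axin regions were called in every library. Without any region were 3 of the 47 genes (6.38%, against 24.2% of all protein-coding genes), namely Dkk1, Rspo1 and Wnt2.

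The number of member regions called in a library ran from 58 to 121, and followed the number of peaks in that library. The group means were 85.0 ± 18.3 (SD, n = 3) for the untreated, 88.3 ± 28.9 for the contralateral and 83.3 ± 4.51 for the IOP retinas of 3-month-old mice, and 82.7 ± 1.53, 102 ± 9.29 and 76.0 ± 15.6 for those of 18-month-old mice. Per 1000 regions called in the same library, the count lay between 1.69 and 2.11 in all 18 libraries. The similarity of calls between pairs of libraries (Jaccard index, shared calls over all calls of the pair) was 0.479 to 0.807 with a median of 0.652 over the member regions, and 0.555 to 0.786 with a median of 0.682 over all regions.

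**Figure D3:**
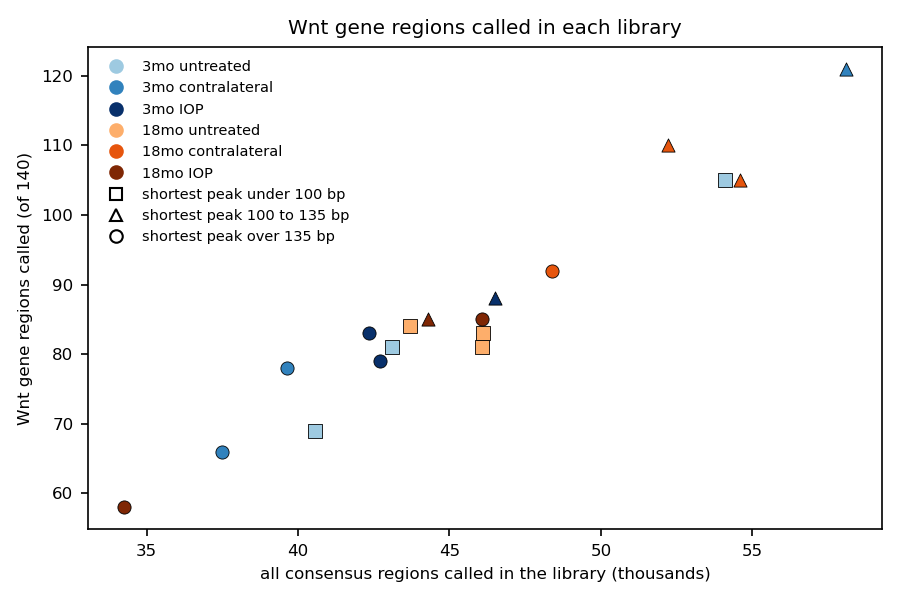
Member regions called in each library (vertical axis, of 140) against all regions called in the same library (horizontal axis, in units of 1000), 1 point per library, colored by group and shaped by the class of the shortest listed peak. The counts run from 58 to 121 and rise with the number of all regions called, and the 18mo IOP libraries average 76.0 against 102 in the 18mo contralateral libraries.

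Age was compared between the 6 control retinas of each age (untreated and contralateral), which the study set against each other to describe natural aging. No member region differed in how often it was called: of the 24 member regions in which the Fisher's exact test could fall under 0.05, 0 were called more often at 18 months at an unadjusted p under 0.05 (3.19% of all such regions were) and 0 less often (0.385%). The smallest adjusted p over the members was 1.00, and over all regions 0.345 (Fisher's exact test, Benjamini-Hochberg). The lowest exact p, 0.0606, was shared by 3 regions. A coding exon region of Fzd7 (chr1:59483645-59484131) was called in 2 of 6 controls at 3 months and 6 of 6 at 18 months, as was a region upstream of Wnt3a (chr11:59293658-59294015), whereas an intron region of Lgr5 (chr10:115469001-115469415) was called in 6 of 6 and 2 of 6.

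Across all 18 libraries the lowest p for age was at Sfrp1. Its promoter was called in the 3mo untreated libraries with folds of 4.62, 4.40 and 7.97, in the 3mo contralateral with 3.97, 8.67 and 4.30, and in the 3mo IOP with 7.50, 4.34 and 3.73, on 7 to 21 tags at the summit. At 18 months it was called in untreated replicate 4 (4.83) and in contralateral replicates 1 and 3 (7.41 and 4.21), and in no IOP library. It was thus called in 9 of 9 libraries at 3 months and in 3 of 9 at 18 months. Both calling 18mo contralateral libraries were of the class with a shortest peak of 114 to 122 bp, whose part in these calls was not tested. This comparison, over all 18 libraries with age permuted within each condition, was added after the data were seen, and gave an exact p of 0.0100 (all exact tests were two-sided) and an adjusted p of 0.412 (Benjamini-Hochberg), so the difference did not pass. Over the 12 controls alone the Fisher's exact p was 0.182 (6 of 6 against 3 of 6 libraries), the lowest this test could give at that number of calls.

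The Fzd7 coding exon region had calls in 4 of 9 libraries at 3 months and 9 of 9 at 18 months (exact p = 0.0400, adjusted p = 0.559). Of 32 member regions testable in this way 1 was called more often at 18 months at an unadjusted p under 0.05 (3.12%, background 5.36%) and 1 less often (background 1.79%). Both counts lay near their background.

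The effect of IOP was first taken over both ages, 6 IOP against 6 contralateral libraries with age as a stratum. Of 13 testable member regions, 0 were called more often upon IOP at an unadjusted p under 0.05 (background 1.62%) and 1 less often (7.69%, background 3.43%). This region lay in an intron of Wnt5a (chr14:28507552-28507930), a ligand mainly of β-catenin-independent signalling without a called promoter. It was called in 2 of 3 3mo contralateral and 3 of 3 18mo contralateral libraries and in 0 of 6 IOP libraries, with an exact stratified p of 0.0200 and an adjusted p of 0.397. The untreated libraries called it in 2 of 3 at either age.

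Within an age, 3 libraries against 3 cannot give an exact p below 0.1, so regions called in 3 of 3 libraries of one group and 0 of 3 of the other were counted. At 3 months 0 of the 140 member regions were gained in this sense upon IOP (background 0.217%) and 0 were lost (0.241%). At 18 months 0 were gained (0.239%) and 5 (3.57%) were lost, against 2.23% of all regions. The 2 shares were not compared by a test. The 5 regions lay at Rspo2, Lrp5, Wnt5a, Wnt5b and Wnt11, and the separation of their calls between the groups is the rule that picked them.

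The central 200 bases of 4 of these regions are shown because they are, with the Wnt11 promoter, the member regions that met this rule at 18 months. The Wnt11 promoter region is given by its position only. They are read from GRCm38/mm10 around the median summit, plus strand, in lower case, at chr15:43159885-43160084 (intron of Rspo2), chr19:3674182-3674381 (intron of Lrp5), chr14:28507585-28507784 (intron of Wnt5a) and chr6:119489849-119490048 (intron of Wnt5b).
Rspo2: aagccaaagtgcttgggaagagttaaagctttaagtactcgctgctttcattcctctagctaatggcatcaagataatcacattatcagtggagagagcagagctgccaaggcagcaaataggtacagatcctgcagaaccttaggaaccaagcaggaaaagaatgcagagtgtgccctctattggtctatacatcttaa
Lrp5: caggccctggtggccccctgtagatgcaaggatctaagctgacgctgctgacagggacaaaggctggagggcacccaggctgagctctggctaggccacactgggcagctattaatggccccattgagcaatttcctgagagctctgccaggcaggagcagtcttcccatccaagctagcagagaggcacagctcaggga
Wnt5a: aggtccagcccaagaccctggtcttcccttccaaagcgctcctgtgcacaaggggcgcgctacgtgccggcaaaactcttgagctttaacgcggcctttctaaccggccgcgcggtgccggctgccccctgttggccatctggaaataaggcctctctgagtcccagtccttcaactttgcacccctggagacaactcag
Wnt5b: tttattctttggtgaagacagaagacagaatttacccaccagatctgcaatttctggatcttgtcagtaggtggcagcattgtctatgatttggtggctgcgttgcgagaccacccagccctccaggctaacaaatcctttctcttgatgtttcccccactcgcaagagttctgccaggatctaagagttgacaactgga

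In the intron of Rspo2, which encodes an R-spondin, the region (chr15:43159868-43160158) was called with folds of 7.83, 6.5 and 6.31 in the 18mo contralateral libraries, in 3 of 3 18mo untreated, 3 of 3 3mo untreated, 1 of 3 3mo contralateral and 3 of 3 3mo IOP libraries, and in 0 of 3 18mo IOP libraries. Among the 5 it was the only region called in every 3mo IOP library. The Lrp5 intron region (chr19:3674182-3674381) had folds of 6.59, 4.21 and 6.31 in the 18mo contralateral libraries and was called in only 1 other library, of 3mo contralateral. The Wnt5a region had folds of 5.45, 4.92 and 5.17 in these libraries. The Wnt5b intron region (chr6:119489821-119490236) had 3.16, 4.81 and 4.69, with calls in 2 of 3 18mo untreated and 1 of 3 3mo contralateral libraries. The Wnt11 promoter region (chr7:98834945-98835344), at the start of the gene, had 2.86, 3.14 and 3.47 and was also called in 2 of 3 18mo untreated, 1 of 3 3mo contralateral and 1 of 3 3mo IOP libraries, while the Wnt11 promoter region called in all 18 libraries lay at another start 2982 bp into the gene.

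The 18mo IOP libraries called fewer regions of any kind, 41532 on average against 51735 in the 18mo contralateral libraries, and 1 of 3 against 2 of 3 belonged to the class with a shortest peak of 114 to 122 bp. With the same number of top peaks kept in each library (36011), 1 of the 5 stayed lost, that of Rspo2. The Lrp5 region was then called in 2 and the Wnt5a region in 1 of the 3 contralateral libraries, each in 0 of 3 IOP libraries, and no region was left at the Wnt5b and Wnt11 positions. Lost in this setting were also 2 other member regions, an intron region of Wnt10a and a further one of Wnt5b, which 1 and 2 of the IOP libraries called in the full lists. The part of the shortest-peak class was not tested. Without 18mo IOP replicate 2 the number of lost member regions was 13, and without 18mo contralateral replicate 2 it was 12. Leaving out a library loosens the rule for loss, so these counts could not fall below the 5. No share over all regions is given beside them.

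**Figure D4:**
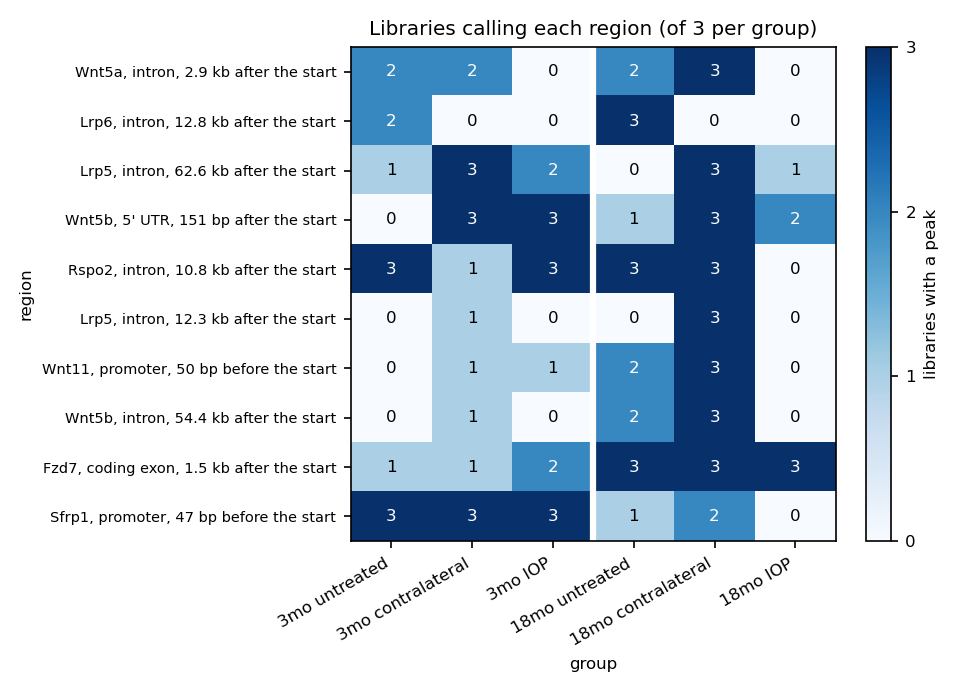
Number of calling libraries (color, 0 to 3) in each of the 6 groups (horizontal axis) for member regions named in the comparisons of calls (vertical axis, gene and distance of the region from the gene start). By the rule that picked them, the 5 regions lost at 18 months upon IOP read 3 in the 18mo contralateral column and 0 in the 18mo IOP column.

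For regions called in every library, the height of the peak could be compared in place of its call. The 43 such regions belonged to 27 of the 47 genes. The deposited summit fold was put on a log2 scale, quantile-normalized over all 24751 regions called in all libraries, and fitted with limma in 1 model of 6 groups. Since a region had to be called in every library to enter, genes with a changing call had no place in this fit.

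No member region passed for age or for IOP. For age (18mo minus 3mo controls) limma called 0 of 43 at an adjusted p under 0.05 (background 0.307%), with 9 under an unadjusted 0.05 (12.6% of all regions). The lowest adjusted p was that of the Wnt6 region in the 5′ UTR, with a log2 difference of 0.30 (SE 0.0712, adjusted p = 0.0774, limma). Its normalized folds were 2.86 ± 0.15 (SD, n = 3) in 3mo untreated and 4.33 ± 0.43 in 18mo untreated libraries, but 4.40 ± 0.43 and 4.43 ± 0.11 in the contralateral libraries of 3 and 18 months, so the difference came from the untreated libraries. The promoter of Fzd5 had a log2 difference of -0.26 (SE 0.0888, limma adjusted p = 0.227) and that of Fzd1 of -0.26 (SE 0.102, limma adjusted p = 0.295). At Fzd1 the 18mo untreated libraries stood at 6.17 ± 1.32 against 9.60 ± 0.85 in 3mo untreated, while the contralateral libraries were at 11.30 ± 0.77 and 10.44 ± 1.84 at 18 and 3 months.

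Upon IOP at 3 months limma called 0 of 43 (background 0.00404%), with 2 under an unadjusted 0.05 (3.56% of all regions). The lowest p were those of Lgr6 (log2 difference -0.37, SE 0.129) and of Wnt9a (0.34, SE 0.127), both at promoters, and an intron of Wnt10a (0.23, SE 0.121), all with a limma adjusted p of 1.00. At 18 months limma called 0 of 43 (background 0.121%), with 5 under an unadjusted 0.05 (12.6%). Here the promoters of Fzd7 (0.36, SE 0.135, limma adjusted p = 0.326) and Fzd5 (0.35, SE 0.126, limma adjusted p = 0.314) were higher and a Wnt2b region lower (-0.31, SE 0.124, limma adjusted p = 0.343), none of them passing. Fzd5 stood at 5.51 ± 0.23 in 18mo contralateral and 7.03 ± 0.68 in 18mo IOP libraries, and at 7.04 ± 1.35 and 6.84 ± 0.20 at 3 months. The difference of the IOP effects between the ages was called for 0 of 43 (background 0%, no region of the series), with 3 under an unadjusted 0.05 (4.58%). It was largest at Lgr6 (log2 0.53, SE 0.183), Wnt2b (-0.46, SE 0.176) and Fzd7 (0.43, SE 0.191), all with a limma adjusted p of 0.898. The median log2 difference over the 43 regions was -0.03 for age, 0.04 and 0.06 for IOP at 3 and 18 months and 0.01 for the difference between ages.

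The untreated and contralateral controls, in contrast, differed at many member regions, as they did over the whole genome. Limma called 17 of 43 (39.5%, background 33.3%), 11 higher and 6 lower in untreated, with 18 under an unadjusted 0.05 (44.0% of all regions). The 6 untreated libraries all belonged to the class with the shortest peaks of 79 to 89 bp, which held no other library, so the kind of control and this class cannot be told apart. The age comparison holds both kinds in equal number. The contralateral libraries also served as the reference for IOP, so these comparisons share samples.

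The largest difference was at a region upstream of Axin2 (-2541 bp from the start), where the untreated libraries stood higher by 0.67 on the log2 scale (SE 0.0786, limma adjusted p = 2.99e-05). Normalized folds there were 6.83 ± 0.31 and 5.75 ± 0.19 in the untreated libraries of 3 and 18 months, 3.69 ± 0.27 and 4.24 ± 0.72 in the contralateral and 4.17 ± 0.36 and 4.77 ± 0.29 in the IOP libraries. A region upstream of Wnt2b was higher by 0.62 (SE 0.0879, limma adjusted p = 0.000124), with 13.33 ± 1.11 and 11.55 ± 2.04 in untreated against 7.1 ± 0.43 and 9.06 ± 0.56 in contralateral libraries. The promoters of Fzd7 (0.56) and Wnt11 (0.35), an intron region of Wnt9b (0.36), 2 upstream regions of Lgr6 (0.37 each, 1 of them at the promoter of Gm10535) and an intron region of Wnt10a (0.30) were also higher in untreated libraries. A further upstream region of Lgr6, called in 16 libraries, did not enter the fit. With tags at the summit in place of the fold, the difference at Wnt11 was -0.056. Lower in untreated were the Fzd8 coding exon region (-0.54), Fzd1 (-0.50), the Wnt6 5′ UTR region (-0.33) and the Lgr5 promoter (-0.34), with limma adjusted p of 0.00339, 0.00172, 0.00262 and 0.00774.

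In the calls themselves no member region differed between the kinds of control after adjustment. Of 24 testable member regions, 1 was called more often in untreated (4.17%, background 5.89%) and 2 more often in contralateral libraries (8.33%, background 5.55%) at an unadjusted p under 0.05, and the smallest adjusted p over the members was 0.132 (Fisher's exact test, Benjamini-Hochberg). An intron region of Lrp6 (chr6:134554108-134554268) was called in 2 of 3 3mo and 3 of 3 18mo untreated libraries and in none of the other 12. An Lrp5 intron region (chr19:3623672-3624206) was called in 1 of 6 untreated and 6 of 6 contralateral libraries, and a Wnt5b 5′ UTR region (chr6:119543615-119544772) in 1 of 6 and 6 of 6. All 3 had an exact p of 0.0152.

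**Figure D5:**
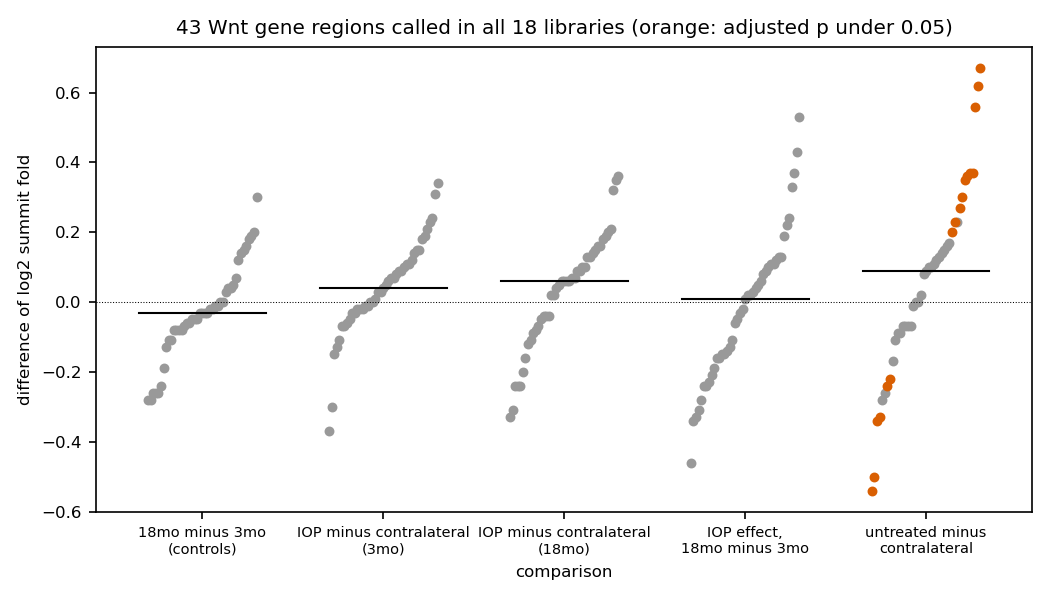
Difference of the log2 summit fold (vertical axis) in each of the 5 comparisons (horizontal axis) for the 43 member regions called in all 18 libraries, 1 point per region, with orange for an adjusted p under 0.05 in limma. Orange points, 17 in number, occur only between untreated and contralateral libraries, and the differences for age run from -0.28 to 0.30.

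The letters bound by TCF/LEF factors, ATCAAAG or its reverse complement CTTTGAT, were looked for in the 200 bases around each median summit. They were present in 4 of the 140 member regions (2.86%), against 2.05% of the 73445 regions searched in the series. The 4 regions lay in an intron of Wnt10a, upstream of Lgr6, at the promoter of Axin2 and at the Wnt11 start, the region that was among the 5 lost at 18 months. A match is a string of letters and not a shown binding site. The Wnt10a sequence (chr1:74797570-74797769, called in 9 libraries) and the Lgr6 sequence (chr1:135108720-135108919, called in 18) are printed with the match in capitals, GRCm38/mm10, plus strand, to show it in its context.
Wnt10a: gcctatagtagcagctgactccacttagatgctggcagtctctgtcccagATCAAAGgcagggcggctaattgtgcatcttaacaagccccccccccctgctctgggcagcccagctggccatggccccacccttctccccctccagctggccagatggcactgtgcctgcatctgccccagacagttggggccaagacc
Lgr6: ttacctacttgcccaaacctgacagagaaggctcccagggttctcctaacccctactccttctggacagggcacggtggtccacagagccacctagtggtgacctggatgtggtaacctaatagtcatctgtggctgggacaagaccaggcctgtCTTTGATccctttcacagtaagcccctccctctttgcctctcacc

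The same regions had a median GC content of 58.0% and 6.00 CpG per 200 bases, against 52.5% and 3.00 over all regions. Among the regions called in every library the medians were 65.0% and 13 for members and 58.0% and 8.00 for all. In the 250 bases before the start, the letters were found in 1 of the 30 promoters with an entry (3.33%, Wnt11), against 3.21% of all promoters of the table.

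Other genes of the pathway, 53 genes of Wnt secretion, receptor control, the cytoplasmic relay, planar polarity and the nucleus, held 248 regions, 89 of them in all libraries, and 39 of the 53 promoters (73.6%) were called in all 18. Among them 14 of 14 genes of the cytoplasmic relay and 10 of 12 nuclear effectors had such promoters, Ctnnb1 (β-catenin) included. So did 7 of 10 genes of receptors and their control, 5 of 7 of planar polarity and 1 of 4 of secretion. Of 6 inhibitors that are secreted or at the membrane, 2 had such promoters, the secreted Wif1 and the membrane protein Apcdd1. Of the genes that meet Fzd4 in retinal vessels, Tspan12 was called in 18 libraries and Ndp, the Norrin ligand, in none. For age, 1 region was called more often and 2 less often at 18 months of 34 tested (unadjusted exact p under 0.05), the former at Vangl1, a planar polarity protein, and the latter both at Ror1, a receptor of Wnt5a (3.19% and 0.385% over all regions). Over both ages 1 of 12 tested was called more often upon IOP (Kremen1) and 2 less often, at Apcdd1, a membrane inhibitor, and Tcf7l2, a TCF factor (1.62% and 3.43% over all regions). A region of Kremen1, a receptor for Dkk proteins (chr11:5218778-5219546), was called in 3 of 3 IOP libraries and 0 of 3 contralateral libraries at both ages. It was the 1 region of the 248 gained at either age (0.217% and 0.239% over all regions), and 1 of 3 18mo untreated libraries also called it. No region of the series passed for IOP over both ages (smallest adjusted p 0.397, exact stratified test, Benjamini-Hochberg). At 18 months 3 regions were lost by the same measure, at Btrc, Tcf7l2 and Ror1, and at 3 months 1, at Apcdd1, of 248 regions each time (2.23% and 0.241% over all regions). Between the kinds of control 4 of 34 regions were called more often in untreated and 4 more often in contralateral libraries (5.89% and 5.55% over all regions). The limma fit called 0 of 89 for age and for IOP, and 18 higher and 14 lower of 89 between the kinds of control, where 33.3% of all regions were called.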

How the data were processed

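ATAC-seq peaks of 18 retina libraries were used. The submitters' processing notes name STAR 2.7.8a, MACS2, HOMER, bedtools 2.29.2, edgeR and mm10. The treatment of duplicates, mitochondrial reads and the transposase shift is not given in the sources used here. The authors called peaks in each library separately, at a q-value threshold of 0.05. Each deposited list gives a score (an integer that grows with the −log10 q-value), a summit fold (a ratio to local background) and the −log10 of the p-value and q-value. The preparation text of the labels also mentions crosslinking and immunoprecipitation. The libraries were treated as ATAC-seq, as titled.

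Peaks (911837) sharing at least 1 bp were joined into 99792 intervals, and those with a peak in at least 2 libraries were kept. Tags at summits and library depth (16.3 to 28.3 M tags, with an effective genome of 1.87 Gb) were solved from the deposited p-value and fold, and all peaks (100.0%) gave whole tags within a relative error of 1e-05. Calls were compared with two-sided Fisher's exact or age-stratified exact tests over all regions whose p could fall under 0.05, and summit folds with limma 3.58.1 (R 4.3.3), both with Benjamini-Hochberg adjustment. The fold is a caller's ratio and not a read count, so the edgeR test of the study was not run. Python 3.11.15, numpy 2.4.6, scipy 1.17.1, pandas 2.3.3 and matplotlib 3.10.9 were used. The scripts were tested on simulated data.

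Members, gene lists and tests were chosen with earlier results of these data known. By rule, the text names regions with an unadjusted p under 0.05 in a test of calls, those called in all libraries of one group and none of the other upon IOP, and those with an adjusted p under 0.05 in limma, at most 12 per comparison, or the 3 lowest p where none passed. Promoter values of further members are given as a description and were chosen after they were seen. Of 54 other pathway genes listed, 53 were found in the annotation. Sequences came from GRCm38 and RefSeq. Alternatives covered the q threshold, peak cover, equal peak number, the number of libraries, the window, strata, the replicate block, left-out libraries and the scaling of folds.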

Additional observations from a re-analysis of the deposited data

How the results depend on the processing

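Of 299 alternative values of the counts over member regions, 255 stayed within 1.5 times the reported count. Of 506 for single named regions 485 kept direction and side of the threshold, 13 no longer passed, 2 newly passed, 5 values without a test moved and 1 turned. With a peak required to cover at least 50% of a region, 0 regions were called less often upon IOP, 1 was lost at 3 months, 23 differed between the kinds of control at an adjusted p under 0.05, 22 were called more often in contralateral at an unadjusted p, and 3 differed in summit fold, out of the 9 regions then called everywhere. No share over all regions is given beside the counts in this section. Median peak widths were 161 to 192 bp in untreated and 264 to 393 bp in contralateral libraries, and the part of this difference in the counts was not tested. With equal peak numbers 0 were called less often upon IOP and 3 were lost at 18 months, of which 1 (Rspo2) was among the 5. Tags in place of the fold gave 1 region for age (Wnt6, log2 difference 0.53, limma adjusted p = 0.00879) and turned the Wnt11 region between the kinds of control to -0.056 (limma adjusted p = 0.626). The comparison over all 18 libraries, chosen after seeing the data, gave 1 region more and 1 less often called at 18 months. With promoters of 2.5 kb, 8 genes in place of 14 had no promoter call.

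Leaving out 1 library gave 0 to 3 regions called more often (3 without 3mo contralateral replicate 2) and 0 to 1 less often at 18 months, 1 to 4 less often upon IOP (4 without 3mo contralateral replicate 1), 1 to 3 more often in untreated and 2 to 5 in contralateral. At 3 months 0 to 4 were gained (4 without contralateral replicate 2) and 0 to 3 lost (3 without contralateral replicate 1), at 18 months 0 to 1 gained and 5 to 13 lost upon IOP. With a library left out the rule for gain or loss is looser, so these counts could only stay or rise. No share over all regions is given beside the counts with a library left out, so they cannot be set against the whole series. Limma called 0 to 2 regions for age (without 3mo contralateral replicate 2, Fzd5 and Wnt5b). Whether equal replicate numbers of IOP and contralateral libraries mark the same mouse is not stated in the labels. Correlations of same-numbered deviations were -0.313, -0.239 and 0.199 at 3 months and 0.356, 0.212 and -0.155 at 18 months. Those of differently numbered libraries ran from -0.448 to 0.443, so these values cannot decide the pairing. With the replicate block, 0 regions were called less often upon IOP (exact McNemar test), limma called 14 in place of 17 between the kinds of control, and no other count moved. The Wnt5a region was called in 2 of 3 and 3 of 3 contralateral libraries and in no IOP library. It could not fall under 0.05 in the McNemar test under any pairing, so its absence there says nothing about the region. Calls near the threshold rest on few tags, such as 6 to 20 at the Lrp5 promoter, so a missing call was not distinguishable from a low value at this depth.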
